A study of Mus musculus with 24 samples.

Results

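The genes described here are the Wnt ligands, their Frizzled receptors and the secreted proteins that raise or lower Wnt signalling: the R-spondins (Rspo), the secreted Frizzled-related proteins (Sfrp), the Dickkopf proteins (Dkk) and Wif1. They were chosen by gene symbol alone, and 42 of the 23329 symbols in the files matched: 19 Wnt, 10 Fzd, 4 Rspo, 4 Sfrp and 4 Dkk genes and Wif1. Messenger RNA was sequenced from C57Bl/6 mouse colon in 24 libraries, 4 in each of 6 groups. Untreated epithelial cells came from VilCre mice (control) and from VilCre-CMVcaNrf2 mice (caNrf2). Whole colon wall, in pieces 10 mm long taken 10 to 20 mm from the rectum, came from the same genotypes, either untreated or given dextran sulfate sodium (DSS), a chemical that injures the colon lining. All 6 groups carry VilCre, a Cre recombinase under a promoter active in gut epithelium, so a mouse without Cre is not among the groups. caNrf2 is a constitutively active form of the transcription factor NRF2, encoded by Nfe2l2. The dose and length of DSS treatment, the age of the mice and the way epithelial cells were isolated are not stated in the labels. The labels do not tie replicates to separate mice, so p-values measure the spread between these libraries, which may be technical.

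Wnt ligands are lipid-modified secreted proteins that bind Frizzled receptors together with the co-receptors Lrp5 and Lrp6, which stabilises beta-catenin and turns on TCF/LEF target genes, or that signal through Frizzled and Ror receptors without beta-catenin. R-spondins bind Lgr receptors and keep Frizzled on the cell surface by blocking the ubiquitin ligases Rnf43 and Znrf3. Sfrp proteins and Wif1 bind Wnts outside the cell, and Dkk1, Dkk2 and Dkk4 bind Lrp5 and Lrp6. In the colon, crypt stem cells depend on Wnt and R-spondin signals, much of which comes from the mesenchyme around the crypts.

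Library totals ran from 6683785 to 15399870 counts in epithelial cells and from 20232317 to 154335999 in wall. Nfe2l2 was fitted higher in caNrf2 in all 3 comparisons of genotype (log2 fold changes 0.88, 0.65 and 0.62), with groups that did not overlap and adjusted p of 0.219, 0.199 and 0.957 by edgeR's quasi-likelihood test. The epithelial label was checked against marker lists. The 6 smooth muscle markers summed to between 32.1 and 106.2 CPM in epithelial cells against 9115 to 13237 CPM in untreated wall. Of 8 epithelial markers none was higher in epithelial cells than in wall, and 3 were lower in controls and 2 in caNrf2. These data therefore do not show an enrichment of epithelial transcripts. Endothelial markers were lower for 1 of 6 genes only, and of 3 lymphatic markers 1 was higher and none lower in each genotype. Control replicate 3 and caNrf2 replicate 1 of the epithelial cells stood apart, with epithelial marker sums of 28403 and 31671 CPM against 6056 to 10485 CPM in the other 6 libraries. Replicate 4 of each wall group carries a different name prefix in the deposited files, whose meaning is not given. Counts and CPM (counts scaled to a common library size) are used within a gene, and TPM (a transcript level corrected for length) between genes. A gene rose or fell where its adjusted p was below 0.05 in edgeR's quasi-likelihood test, adjusted by Benjamini-Hochberg over all genes tested. Errors after ± are SE for log2 fold changes and SD for means over 4 libraries.

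Per length, Frizzled receptors were the family with the highest summed level in epithelial cells, at 72.8 ± 14.2 TPM in control and 82.0 ± 4.82 TPM in caNrf2 cells. Wnt ligands summed to 3.91 ± 1.35 and 5.85 ± 0.694 TPM there, and Rspo, Sfrp and Dkk genes each stayed at or below 3.25 TPM in every epithelial library. In untreated control wall the sums were 57.6 ± 17.1 TPM for Fzd, 30.7 ± 8.36 for Dkk, 24.7 ± 7.56 for Sfrp, 12.4 ± 4.96 for Wnt and 6.66 ± 3.26 for Rspo genes. With DSS the control wall sums were 105.7 ± 13.7 TPM for Fzd, 108.7 ± 31.9 for Sfrp, 73.5 ± 20.5 for Dkk, 39.2 ± 12.7 for Wnt and 30.6 ± 4.29 for Rspo genes. In caNrf2 wall the untreated and DSS means were 69.9 and 101.5 TPM for Fzd, 20.2 and 108.3 for Sfrp, 26.7 and 81.4 for Dkk, 15.2 and 36.0 for Wnt and 8.03 and 35.0 for Rspo genes. Each DSS-treated library exceeded every untreated wall library of its genotype in the Wnt, Rspo, Sfrp and Dkk sums, and in the Fzd sum in controls. The caNrf2 Fzd sums overlapped, at 63.1 to 78.5 TPM untreated and 70.9 to 138.4 TPM with DSS.

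**Figure D1:**
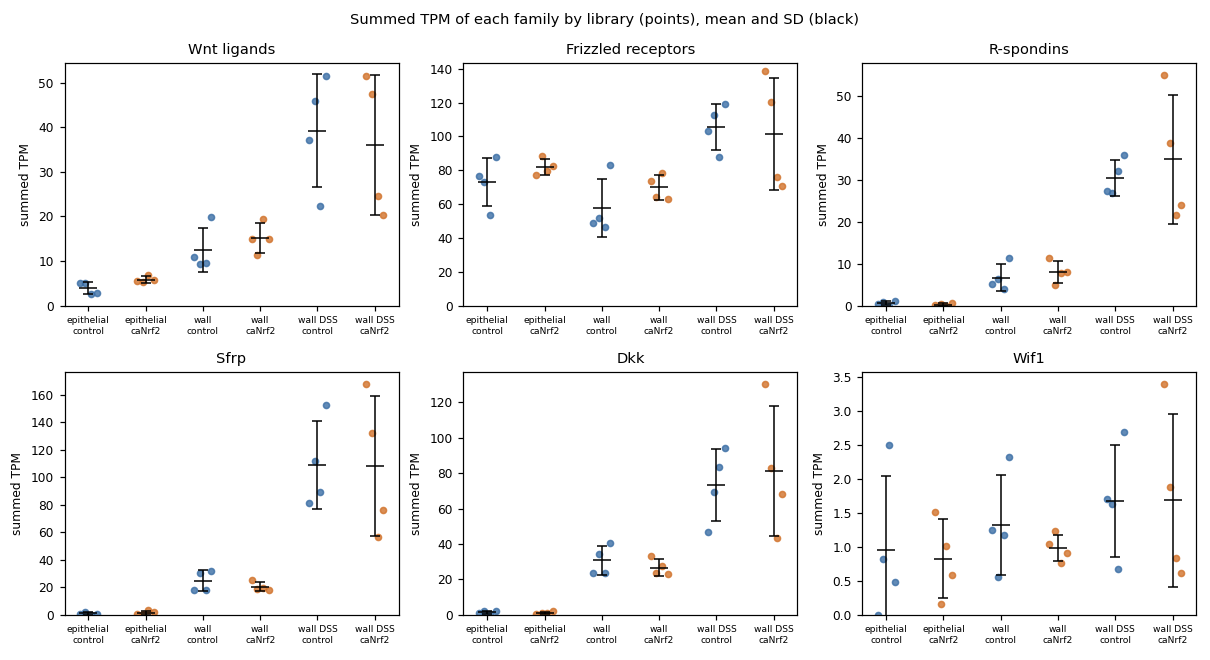
Summed TPM of each family (vertical axis) in each library (points, blue control and orange caNrf2) of the 6 groups, with mean and SD in black. The Sfrp sums of DSS-treated wall sit between 56.8 and 168.0 TPM, above the 17.7 to 31.8 TPM of untreated wall.

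A single receptor led the epithelial list. Fzd5, a Wnt receptor of gut epithelium, averaged 27.9 TPM in control and 35.9 TPM in caNrf2 epithelial cells, above the next gene, Fzd1 (9.13 and 11.6 TPM), in every library. Fzd1, Fzd6, Fzd7 and Fzd9 followed in control cells at 9.13, 8.98, 7.75 and 6.06 TPM, and the range of each overlapped that of the next. Within each library Fzd6 lay above Fzd7. In wall the highest member was Dkk3, at 29.9 TPM in untreated controls, followed by Fzd5 at 19.8, Sfrp1 at 12.5 and Fzd1 at 11.7 TPM. The range of each over the libraries overlapped that of the next, although Dkk3 lay above Fzd5 within each library. With DSS the control order was Dkk3 at 72.1, Sfrp1 at 50.4, Fzd1 at 40.4, Sfrp2 at 31.4 and Rspo3 at 27.1 TPM. The range of each again overlapped that of the next. Within each library Dkk3 lay above Sfrp1, Sfrp1 above Fzd1 and Fzd1 above Sfrp2, while Sfrp2 and Rspo3 changed places between libraries. Dkk3, a divergent Dickkopf, is not known to bind Lrp5 or Lrp6 as its relatives do.

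Of the 42 genes, 14 had counts in all 24 libraries, 30 in all 16 wall libraries and 15 in all 8 epithelial libraries. Dkk4 and Wnt3a had no count anywhere, which allows a level of up to 0.00334 CPM over the 24 libraries (3 counts, counting error only). In epithelial cells Rspo4, Wnt10a, Wnt16, Wnt7a and Wnt8a had none either, a limit of 0.0321 CPM over 8 libraries. Wnt3, a ligand that mouse small intestinal Paneth cells make, lay between 0 and 0.354 CPM in epithelial cells and between 0.0313 and 0.356 CPM in wall. There are 4 pairs of Wnt genes that lie next to each other in the files' mm10 coordinates: Wnt6 and Wnt10a 6.7 kb apart on chromosome 1, Wnt3a and Wnt9a 16.2 kb and Wnt9b and Wnt3 24.4 kb apart on chromosome 11, and Wnt10b and Wnt1 11.7 kb apart on chromosome 15. Neighbours were not at one level: untreated control wall had 1.22 CPM of Wnt9a beside no count of Wnt3a, and 1.33 CPM of Wnt6 beside 0.062 CPM of Wnt10a. The filter on low counts left 17 members for the epithelial test, 29 for the wall tests and 28 for the comparison of tissues. Untested in the wall were Dkk1, Dkk4, Fzd10, Rspo4, Wnt1, Wnt3, Wnt3a, Wnt7a, Wnt7b, Wnt8a, Wnt9b, Wnt10a and Wnt10b. Of these, Fzd10 reached 2.11 CPM in epithelial cells, and the others stayed at or below 0.776 CPM in every library, the value of Wnt10b in 1 epithelial library.

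With DSS, Rspo3, Dkk3, the 4 Sfrp genes and the ligands Wnt2b, Wnt5b and Wnt9a rose in the colon wall of both genotypes, and Fzd6 fell in both. Of 10 tested Wnt genes 7 rose in controls and 6 in caNrf2 wall, of 3 tested Rspo genes 1 and 3, of 9 tested Fzd genes 5 and 4, and of 2 tested Dkk genes 1 in each, while Wif1 passed in neither. In controls 18 of the 29 tested members rose and 1 fell, 65.5% of them, where 39.2% of all 16074 genes changed, 23.1% upward and 16.1% downward. In caNrf2 wall 18 rose and 1 fell, where 41.2% of all genes changed, 23.1% upward and 18.1% downward. The untreated and DSS-treated libraries did not overlap for 14 of the 29 members in controls, beside 34.1% of all genes, and for 18 in caNrf2 wall, beside 35.1%. The median log2 change of the tested members was 1.30 in controls and 1.10 in caNrf2 wall, beside 0.06 and 0.01 over all genes. Of the 29, 26 had all 4 libraries over the filter's level in an untreated and in a DSS-treated group, and of these 16 rose and 1 fell in controls and 17 rose and 1 fell in caNrf2 wall. Called in both genotypes were 15 members, 78.9% of each list: Wnt2, Wnt2b, Wnt5b, Wnt9a, Rspo3, Fzd1, Fzd2, Fzd3, Fzd4, Sfrp1, Sfrp2, Sfrp4, Sfrp5 and Dkk3 rose and Fzd6 fell. The matching share over all genes was not worked out, so nothing particular to the members is read from this overlap. Wall is a bulk sample, in which more cells of a type and more RNA per cell cannot be told apart. Summed fibroblast markers went from 1034 to 1241 CPM untreated to 2166 to 4039 CPM with DSS in controls, and from 1018 to 1284 to 1967 to 4030 CPM in caNrf2 wall, with 8 of 10 markers higher in each. Of these 10 markers 1 was lower in controls and 2 were lower in caNrf2 wall. Gli1, a marker of mesenchymal cells around mouse colon crypts that is named here after its values were seen, fell by 1.06 in controls (adjusted p = 0.00779) and fell by 1.19 in caNrf2 wall (adjusted p = 0.00352). All 6 endothelial and all 6 enteric neuron and glia markers rose as well (medians 1.45 and 1.29 in controls, 1.37 and 1.36 in caNrf2 wall). All 3 lymphatic markers rose (medians 1.53 and 1.43), as did 4 of 6 immune markers in controls and 3 of 6 in caNrf2 wall (medians 1.25 and 0.92) and 1 and 2 of 6 smooth muscle markers. The part of these cell types in the changes of the Wnt genes was not tested.

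**Figure D2:**
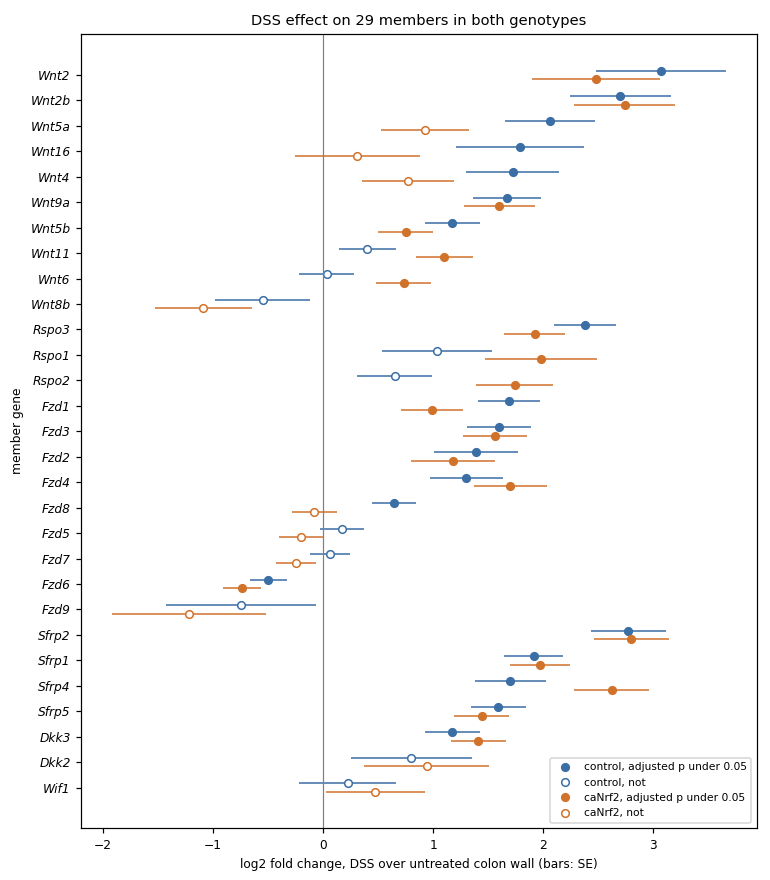
Log2 fold change of DSS-treated over untreated colon wall (horizontal axis, bars SE) for the 29 tested members by family, blue for control and orange for caNrf2 wall, filled where the adjusted p was below 0.05. All 4 Sfrp genes rose in both genotypes, by 1.44 to 2.80, and Fzd6 fell by 0.50 and 0.74.

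Among the ligands, Wnt2b, which signals through beta-catenin, was one of those with the largest changes. In control wall, Wnt2b stood at 1.88, 3.4, 1.43 and 3.15 CPM untreated and at 17, 26.5, 4.79 and 12.1 CPM with DSS. In caNrf2 wall it was at 3.45, 1.92, 3.03 and 1.99 CPM without DSS and 18.8, 25, 15 and 8.25 CPM with it. The DSS-treated libraries lay above the untreated ones in both, and Wnt2b rose by 2.70 ± 0.46 in controls (adjusted p = 0.000514) and 2.74 ± 0.46 in caNrf2 wall (adjusted p = 0.000397, edgeR). Wnt2, its close relative, was scarce. Wnt2 counted 0.11, 0.68, 0.0977 and 0.116 CPM in untreated control wall, against 1.28, 2.71, 0.488 and 1.75 CPM with DSS. caNrf2 wall held 0.284, 0.25, 0.228 and 0.151 CPM untreated and 1.4, 1.67, 0.967 and 0.854 CPM with DSS. Its estimates were 3.07 ± 0.59 in controls, where untreated replicate 2 overlapped DSS replicate 3, and 2.48 ± 0.58 in caNrf2 wall, where the groups did not overlap. Wnt2 passed the filter on low counts only through the DSS-treated groups, in which it was high, so these are descriptions. In a fit with no such filter, which took in the 40 members with any count, the Wnt2 estimates were 3.04 (adjusted p = 0.000984) and 2.45 (adjusted p = 0.00336). That fit used the same libraries, so it is no separate support.

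Wnt5a, the main ligand of signalling without beta-catenin, had the highest mean of the Wnt genes per length in untreated control epithelial cells (1.07 ± 0.139 TPM) and wall (2.57 ± 1.81 TPM). Wnt5b lay above it in epithelial replicates 1 and 2, Wnt4 in epithelial replicate 1, and Wnt2b, Wnt5b and Wnt4 in wall replicate 2. Wnt5a was at 5.34, 2.49, 5.13 and 10.0 CPM in the untreated and 19.2, 24.7, 13.4 and 34.5 CPM in the DSS-treated libraries of control wall. For caNrf2 wall the libraries gave 8.47, 6.42, 12.2 and 7.72 CPM untreated and 24.5, 20.1, 9.69 and 10.1 CPM with DSS. Wnt5a rose by 2.06 ± 0.41 in controls (adjusted p = 0.00146), and in caNrf2 wall its estimate was 0.92 ± 0.40 (adjusted p = 0.0758), with overlapping groups. The caNrf2 estimate passed the threshold without DSS replicate 3 (adjusted p = 0.0438), without DSS replicate 4 (adjusted p = 0.0454) and in DESeq2 (adjusted p = 0.0486). In control wall, Wnt4 stood at 3.9, 3.27, 4.03 and 5.99 CPM untreated and at 13.5, 12.3, 5.47 and 22.7 CPM with DSS. Untreated caNrf2 wall gave 4.73, 3.96, 9.51 and 8.21 CPM, and DSS-treated caNrf2 wall gave 15.4, 15.5, 6 and 7.24 CPM. Wnt4, known from kidney development, overlapped between untreated and DSS-treated libraries in both genotypes and rose in controls by 1.72 ± 0.42 (adjusted p = 0.00505), beside 0.77 ± 0.42 in caNrf2 wall (adjusted p = 0.149). The difference between genotypes was -1.13 ± 0.57 for Wnt5a (adjusted p = 0.677) and -0.96 ± 0.59 for Wnt4 (adjusted p = 0.783), so a difference in their response was not shown.

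Wnt9a, known from joint formation, and Wnt5b rose in both genotypes. Wnt9a counted 0.952, 1.09, 1.16 and 1.69 CPM in untreated control wall, against 2.47, 3.28, 5.81 and 3.31 CPM with DSS. The caNrf2 libraries were at 1.61, 0.993, 1.4 and 1.45 CPM untreated and 4.02, 3.62, 2.8 and 5.73 CPM after DSS. Wnt9a rose by 1.67 ± 0.31 in controls (adjusted p = 0.000979) and 1.60 ± 0.32 in caNrf2 wall (adjusted p = 0.00112), with no overlap in either. Wnt5b was at 2.84, 2.18, 2.53 and 2.7 CPM in the untreated and 3.79, 6.13, 4.25 and 7.53 CPM in the DSS-treated libraries of control wall. Its values in caNrf2 wall were 3.97, 2.53, 2.99 and 2.46 CPM untreated and 5.84, 5.59, 3.69 and 4.43 CPM with DSS. The groups overlapped in caNrf2 wall only. Wnt5b, a relative of Wnt5a, rose by 1.17 ± 0.25 (adjusted p = 0.00225) and 0.75 ± 0.25 (adjusted p = 0.0251). The caNrf2 call for Wnt5b was lost without DSS replicate 1 or 2 (adjusted p = 0.0867 and 0.0707) and without untreated replicate 2 or 4 (adjusted p = 0.0797 and 0.0711). Leaving out the 4 wall libraries of the other name prefix lost it too (adjusted p = 0.0576). In control wall, Wnt11 stood at 1.24, 1.22, 1.11 and 0.996 CPM untreated and at 1.1, 1.26, 1.86 and 1.49 CPM with DSS. In caNrf2 wall it was at 1.14, 0.688, 0.716 and 0.606 CPM without DSS and 1.38, 1.81, 1.3 and 2.03 CPM with it. Wnt11, a ligand of signalling without beta-catenin, rose without overlap in caNrf2 wall by 1.10 ± 0.26 (adjusted p = 0.00402), with 0.40 ± 0.26 in controls (adjusted p = 0.223). Wnt6 counted 1.46, 0.998, 1.5 and 1.35 CPM in untreated control wall, against 1.1, 1.01, 1.61 and 1.45 CPM with DSS. caNrf2 wall held 0.946, 1.02, 0.651 and 1.08 CPM untreated and 1.24, 1.74, 1.35 and 1.79 CPM with DSS. Wnt6 rose in caNrf2 wall, again without overlap, by 0.73 ± 0.25 (adjusted p = 0.0296), with 0.03 ± 0.25 in controls (adjusted p = 0.942). The differences between genotypes were 0.70 ± 0.37 for Wnt11 (adjusted p = 0.709) and 0.71 ± 0.36 for Wnt6 (adjusted p = 0.679). Wnt6 lost its call without DSS replicate 2 or 4 (adjusted p = 0.0813 and 0.0697) and without untreated replicate 1, 2 or 3 (adjusted p = 0.0565, 0.0558 and 0.0875). It lost it as well without the 4 wall libraries of the other name prefix (adjusted p = 0.0732) and in the fit of the 2 caNrf2 groups alone (adjusted p = 0.0546). Wnt16, at no more than 0.723 CPM in any library, rose in controls by 1.79 ± 0.58 (adjusted p = 0.0222). That call was lost without control DSS replicate 2 or 4 (adjusted p = 0.0563 and 0.0826) or untreated replicate 1 (adjusted p = 0.0637). It was also lost without the 4 wall libraries of the other name prefix (adjusted p = 0.107). Control wall held 0.0915, 0, 0.244 and 0.16 CPM of Wnt16 untreated and 0.376, 0.574, 0.147 and 0.723 CPM with DSS, with overlap. No wall group had all 4 libraries over the level of the low-count filter for Wnt16, so its estimate rests on scarce counts.

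Wnt8b, a ligand best known from the developing forebrain, went the other way without passing the threshold. Wnt8b was at 4.14, 1.63, 3.76 and 5.55 CPM in the untreated and 4.19, 1.29, 2.59 and 1.86 CPM in the DSS-treated libraries of control wall. For caNrf2 wall the libraries gave 3.5, 5.25, 5.76 and 5.3 CPM untreated and 0.736, 2.38, 3.46 and 2.68 CPM with DSS. The caNrf2 groups did not overlap, and its estimates were -0.55 ± 0.43 (adjusted p = 0.324) and -1.09 ± 0.44 (adjusted p = 0.0545). Without caNrf2 DSS replicate 3 the second became -1.35 (adjusted p = 0.036), and DESeq2 gave -1.10 (adjusted p = 0.0265). As a share of the summed Wnt TPM, Wnt8b went from 14.7% ± 4.17 to 4.15% ± 2.66 in control wall and from 16.5% ± 4.05 to 4.33% ± 2.87 in caNrf2 wall, and no DSS-treated library reached the lowest untreated share of its genotype. Wnt2b took 9.77% ± 4.88 and 20.1% ± 9.76 of the control sums and 7.99% ± 1.94 and 25.3% ± 6.25 of the caNrf2 sums, with overlap in controls. Shares within a sum depend on one another, and no test was made on them.

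**Figure D3:**
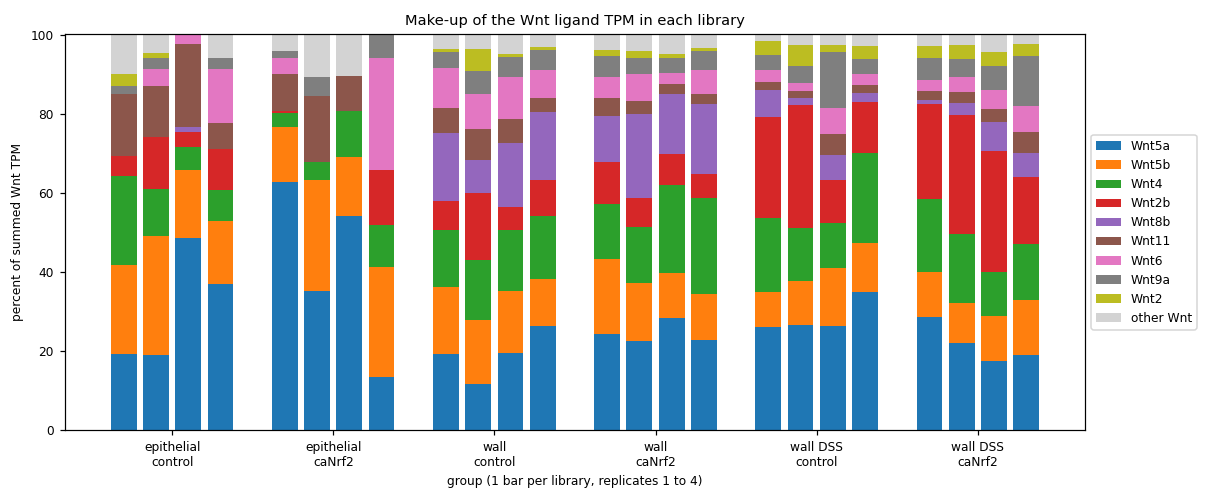
Share of the summed Wnt TPM (vertical axis, percent) taken by each Wnt gene, with 1 bar per library in replicate order and the remaining Wnt genes in grey. Wnt8b takes 8.51 to 21.2% in untreated wall and 0.992 to 7.41% with DSS, and is at or near 0 in epithelial cells.

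Rspo3, an R-spondin of the stroma below colon crypts, had the smallest adjusted p of the members in control wall. In control wall, Rspo3 stood at 6.39, 5.58, 4.6 and 10.4 CPM untreated and at 29.6, 30.3, 37.4 and 36.4 CPM with DSS. Untreated caNrf2 wall gave 12.7, 6.17, 8.92 and 9.56 CPM, and DSS-treated caNrf2 wall gave 48.5, 33, 25.3 and 30.9 CPM. The lowest DSS-treated library lay above the highest untreated one in both genotypes, and Rspo3 rose by 2.38 ± 0.28 (adjusted p = 7.72e-05) in controls and 1.92 ± 0.28 (adjusted p = 0.000159) in caNrf2 wall. Rspo1 and Rspo2 are further ligands of the Lgr receptors. Rspo1 counted 0.677, 2.04, 0.989 and 1.59 CPM in untreated control wall, against 1.56, 1.51, 2.64 and 4.27 CPM with DSS. The caNrf2 libraries were at 2.51, 0.708, 0.814 and 0.959 CPM untreated and 4.07, 8.14, 2.11 and 4.19 CPM after DSS. Rspo1 rose in caNrf2 wall by 1.98 ± 0.51 (adjusted p = 0.00639), although untreated replicate 1 reached into the DSS range, and its estimate in controls was 1.03 ± 0.50 (adjusted p = 0.112). Rspo2 was at 0.823, 0.998, 0.94 and 0.809 CPM in the untreated and 1, 0.895, 2.15 and 1.27 CPM in the DSS-treated libraries of control wall. Its values in caNrf2 wall were 0.237, 0.521, 0.781 and 0.589 CPM untreated and 2.3, 1.71, 1.14 and 1.99 CPM with DSS. The caNrf2 groups did not overlap and the control groups did, and Rspo2 rose by 1.74 ± 0.35 in caNrf2 wall (adjusted p = 0.00143), with 0.65 ± 0.34 in controls (adjusted p = 0.143). The difference between genotypes was 1.09 ± 0.49 for Rspo2 (adjusted p = 0.605) and 0.95 ± 0.71 for Rspo1 (adjusted p = 0.858).

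The 4 genes with Sfrp symbols, which encode secreted Wnt-binding proteins, all rose in both genotypes. Their relative Frzb is not matched by the symbol rule and belongs to the list of secretion and receptor partners counted below. In control wall, Sfrp2 stood at 4.32, 7.03, 2.89 and 5.67 CPM untreated and at 27.3, 31.1, 21.3 and 47.1 CPM with DSS. In caNrf2 wall it was at 5.54, 4.08, 4.46 and 3.3 CPM without DSS and 30.4, 47.2, 18.3 and 21.7 CPM with it. No untreated library reached the DSS range, and Sfrp2 rose by 2.77 ± 0.34 (adjusted p = 8.51e-05) and 2.80 ± 0.34 (adjusted p = 6.24e-05). Sfrp1 counted 25.9, 38.4, 29.6 and 37 CPM in untreated control wall, against 74, 133.4, 108 and 146 CPM with DSS. caNrf2 wall held 36, 27.8, 28.6 and 27.8 CPM untreated and 169.7, 115.4, 59.3 and 115.6 CPM with DSS. Sfrp1, per length the most abundant Sfrp in control wall, rose by 1.91 ± 0.27 (adjusted p = 0.000185) and 1.97 ± 0.27 (adjusted p = 0.000119), without overlap. Sfrp4 was at 4.03, 8.12, 5.1 and 4.28 CPM in the untreated and 11.7, 13.1, 15.9 and 24.4 CPM in the DSS-treated libraries of control wall. For caNrf2 wall the libraries gave 3.93, 3.32, 1.63 and 1.92 CPM untreated and 20.8, 18.5, 11.5 and 13.3 CPM with DSS. Every DSS-treated library of Sfrp4 lay above the untreated ones, with increases of 1.70 ± 0.32 (adjusted p = 0.001) and 2.62 ± 0.34 (adjusted p = 7.67e-05). The difference between genotypes for Sfrp4 was 0.91 ± 0.45 (adjusted p = 0.662). In control wall, Sfrp5 stood at 2.98, 2.63, 2.88 and 3.22 CPM untreated and at 5.73, 7.74, 9.18 and 10.6 CPM with DSS. Untreated caNrf2 wall gave 3.08, 3.12, 2.96 and 2.63 CPM, and DSS-treated caNrf2 wall gave 9.84, 6.97, 4.5 and 10.0 CPM. Sfrp5 lay between 2.63 and 3.22 CPM in all 8 untreated wall libraries and at 4.5 CPM or more with DSS, and rose by 1.59 ± 0.25 (adjusted p = 0.000364) and 1.44 ± 0.25 (adjusted p = 0.000573).

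The promoters of the members with estimates above 2 on the log2 scale in both genotypes, Sfrp2, Wnt2 and Wnt2b, are shown because these genes had the largest DSS estimates. Printed are the 250 bases before each start from RefSeq (mm10). Capitals mark matches on either strand to GGGCGG (a GC box) or to GGG and TTCC with any 3 bases between them (an NF-kB-type motif).
Sfrp2, chr3:83766071-83766320, plus strand: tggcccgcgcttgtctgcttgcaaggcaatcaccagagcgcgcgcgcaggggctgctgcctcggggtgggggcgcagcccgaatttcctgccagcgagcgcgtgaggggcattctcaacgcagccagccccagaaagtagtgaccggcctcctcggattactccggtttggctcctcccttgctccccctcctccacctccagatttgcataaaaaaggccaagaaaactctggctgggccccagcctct
Wnt2, chr6:18030446-18030695, minus strand: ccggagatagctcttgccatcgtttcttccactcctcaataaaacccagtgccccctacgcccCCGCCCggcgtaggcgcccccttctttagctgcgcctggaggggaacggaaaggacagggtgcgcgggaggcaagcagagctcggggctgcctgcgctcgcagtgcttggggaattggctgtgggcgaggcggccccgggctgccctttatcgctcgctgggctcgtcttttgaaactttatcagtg
Wnt2b, chr3:104961710-104961959, minus strand: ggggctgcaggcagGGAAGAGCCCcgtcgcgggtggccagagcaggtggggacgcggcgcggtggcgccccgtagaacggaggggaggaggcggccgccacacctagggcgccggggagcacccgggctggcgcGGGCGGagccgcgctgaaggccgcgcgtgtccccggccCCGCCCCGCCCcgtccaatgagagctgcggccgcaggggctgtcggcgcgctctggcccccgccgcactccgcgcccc
Sfrp2 held no match, Wnt2 held 1 GC box and Wnt2b held 3 GC boxes, 2 of which overlap, and 1 NF-kB-type match 236 bases before the start. Of 32851 promoter windows of the same length, 32.7% hold the GC box and 4.6% the NF-kB-type motif. Searched with no match in these 3 were CTTTGAT (TCF/LEF, in 3.2% of windows) and TGANTCA (AP-1, in 6.7%).

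Dkk3 counted 51.4, 68.6, 55.6 and 63.6 CPM in untreated control wall, against 76.9, 118.3, 153.1 and 157 CPM with DSS. The caNrf2 libraries were at 65.2, 50.7, 51.7 and 43.9 CPM untreated and 183.4, 134.6, 80.9 and 151.2 CPM after DSS. The groups did not overlap in either genotype, and Dkk3 rose by 1.17 ± 0.25 (adjusted p = 0.00202) and 1.41 ± 0.25 (adjusted p = 0.000572). Dkk2 was at 0.878, 0.998, 0.989 and 3.43 CPM in the untreated and 1.63, 2.71, 3.13 and 3.2 CPM in the DSS-treated libraries of control wall. Its values in caNrf2 wall were 0.804, 0.444, 0.716 and 2.27 CPM untreated and 3.38, 2.38, 0.992 and 1.3 CPM with DSS. Replicate 4, of the other name prefix, was the highest untreated library of Dkk2 in both genotypes, and the estimates over all libraries were 0.80 ± 0.55 (adjusted p = 0.261) and 0.94 ± 0.57 (adjusted p = 0.194). Without untreated control replicate 4 the control value was 1.53 (adjusted p = 0.0313), and without untreated caNrf2 replicate 4 the caNrf2 value was 1.68 (adjusted p = 0.026). Within the wall libraries of the common prefix, Dkk2 rose by 1.43 (adjusted p = 0.0194) and 1.85 (adjusted p = 0.00614). Wif1 stayed at 0.22 ± 0.44 (adjusted p = 0.72) and 0.47 ± 0.45 (adjusted p = 0.408), with a 95% interval of -0.64 to 1.07 in controls.

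**Figure D4:**
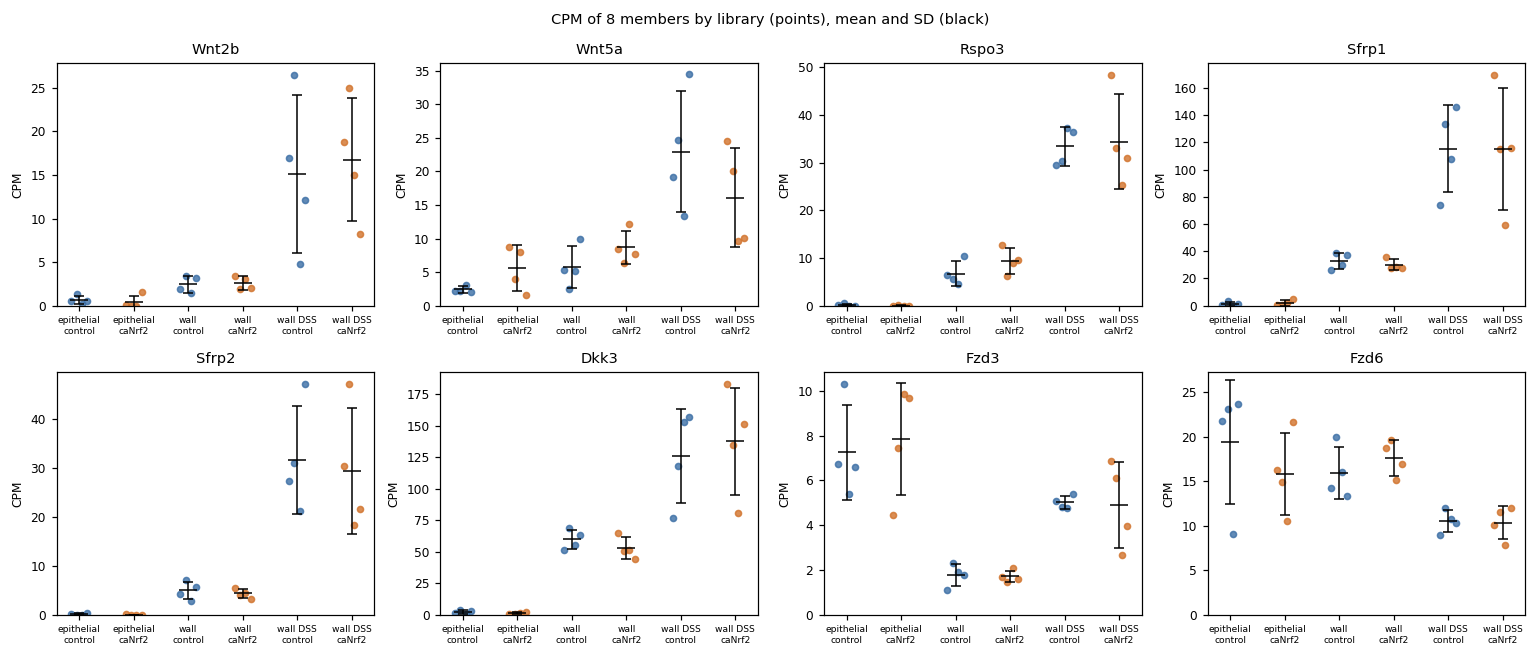
CPM (vertical axis) of 8 members in each library (points) of the 6 groups, with mean and SD in black. Rspo3, Sfrp1, Sfrp2 and Dkk3 lie near 0 in epithelial cells and highest in DSS-treated wall, while Fzd6 is lowest there.

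The Frizzled receptors divided. In control wall, Fzd1 stood at 28.1, 25.4, 25.3 and 41.8 CPM untreated and at 72.3, 116, 62.5 and 117.4 CPM with DSS. In caNrf2 wall it was at 44.2, 41.8, 45.6 and 38 CPM without DSS and 123.4, 95.5, 55.1 and 54.6 CPM with it. Fzd1 rose without overlap by 1.69 ± 0.28 in controls (adjusted p = 0.000462) and 0.99 ± 0.28 in caNrf2 wall (adjusted p = 0.00979, and 0.0508 without DSS replicate 1). Fzd3 counted 1.12, 2.31, 1.89 and 1.78 CPM in untreated control wall, against 5.1, 4.82, 4.79 and 5.41 CPM with DSS. caNrf2 wall held 1.7, 1.46, 2.08 and 1.6 CPM untreated and 6.85, 6.13, 2.65 and 3.98 CPM with DSS. Fzd3, which acts in planar polarity and axon guidance, rose by 1.60 ± 0.29 (adjusted p = 0.00078) and 1.56 ± 0.29 (adjusted p = 0.000826). Fzd4 was at 3.18, 8.44, 3.14 and 4.05 CPM in the untreated and 10.7, 10.8, 9.48 and 12 CPM in the DSS-treated libraries of control wall. For caNrf2 wall the libraries gave 5.44, 4.19, 4.49 and 2.84 CPM untreated and 19.3, 15.5, 10.9 and 7.44 CPM with DSS. Fzd4, also the receptor for norrin on endothelium, rose by 1.30 ± 0.33 (adjusted p = 0.00623) and 1.70 ± 0.33 (adjusted p = 0.00115), without overlap. In control wall, Fzd2 stood at 5.07, 9.25, 7.85 and 18.3 CPM untreated and at 19.2, 23, 42.6 and 16.6 CPM with DSS. Untreated caNrf2 wall gave 9.41, 6.13, 11 and 14.1 CPM, and DSS-treated caNrf2 wall gave 18.1, 25.4, 19.2 and 28.5 CPM. Fzd2 rose by 1.39 ± 0.38 (adjusted p = 0.00943) with overlap in controls, and by 1.18 ± 0.38 (adjusted p = 0.0212) without overlap in caNrf2 wall. The caNrf2 call for Fzd2 was lost without DSS replicate 2 (adjusted p = 0.0511) and without untreated replicate 1 or 2 (adjusted p = 0.0504 and 0.0711).

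Fzd6 counted 14.3, 20.0, 16.1 and 13.3 CPM in untreated control wall, against 9.01, 12, 10.8 and 10.3 CPM with DSS. The caNrf2 libraries were at 18.7, 19.7, 15.2 and 16.9 CPM untreated and 10.1, 11.5, 7.89 and 12 CPM after DSS. Every DSS-treated library lay below the untreated ones, and Fzd6, a receptor known for tissue polarity, fell by 0.50 on the log2 scale in controls (SE 0.17, adjusted p = 0.0265) and fell by 0.74 in caNrf2 wall (SE 0.17, adjusted p = 0.00305). The control call was lost without DSS replicate 1 or 4 (adjusted p = 0.0696 and 0.0566) and without untreated replicate 2 (adjusted p = 0.0906). Fzd8 was at 6.84, 7.08, 7.31 and 11 CPM in the untreated and 11.9, 15.1, 9.77 and 11.1 CPM in the DSS-treated libraries of control wall. Its values in caNrf2 wall were 12.1, 10.8, 10.8 and 8.97 CPM untreated and 11, 9.98, 7.71 and 10.9 CPM with DSS. The groups overlapped in both, and Fzd8 rose in controls by 0.64 ± 0.20 (adjusted p = 0.0167), a call lost without DSS replicate 2 (adjusted p = 0.067) or untreated replicate 1 or 3 (adjusted p = 0.0561 and 0.0755), and gave -0.08 ± 0.20 in caNrf2 wall. The control call for Fzd8 was also lost in the fit of the 2 control groups alone (adjusted p = 0.0555). Fzd5 and Fzd7 did not pass: Fzd5 gave 0.17 ± 0.20 and -0.20 ± 0.20, and Fzd7 gave 0.06 ± 0.18 and -0.25 ± 0.18. The 95% intervals were -0.22 to 0.56 and -0.59 to 0.19 for Fzd5, and -0.29 to 0.41 and -0.60 to 0.10 for Fzd7. Fzd9 gave -0.75 ± 0.68 and -1.22 ± 0.70 with no call, and -1.66 in caNrf2 wall without untreated replicate 4 (adjusted p = 0.037). No member among 29, and 0% of all genes, passed the threshold for a DSS response that differed between genotypes (edgeR). At an unadjusted p below 0.05, 2 members (Fzd8 and Rspo2) and 7.96% of all genes did, and DESeq2 called 32 genes and no member.

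The other pathway genes changed in both directions with DSS. Of 12 tested targets 2 rose and 6 fell in controls, and 1 rose and 5 fell in caNrf2 wall. Over all genes 23.1% rose and 16.1% fell in controls, and 23.1% rose and 18.1% fell in caNrf2 wall. Ascl2, a factor of crypt stem cells, fell by 5.58 and fell by 5.56 on the log2 scale. Axin2, a feedback inhibitor and standard readout of beta-catenin activity, was at 44.4 ± 13.7 CPM in untreated and 7.01 ± 1.13 CPM in DSS-treated control wall, and at 37.9 ± 5.53 and 7.68 ± 2.64 CPM in caNrf2 wall. Axin2 fell by 2.59 (SE 0.26, adjusted p = 2.36e-05) and fell by 2.27 (SE 0.26, adjusted p = 5.15e-05), and Ephb3, a receptor that positions crypt cells, fell by 1.74 and fell by 1.36. Of 20 tested secretion and receptor partners 5 rose and 3 fell in controls, and 8 rose and 2 fell in caNrf2 wall. Lgr5, the R-spondin receptor that marks crypt stem cells, averaged 8.02 ± 1.83 CPM untreated and 0.448 ± 0.105 CPM with DSS in controls, and fell by 4.04 (SE 0.31), and in caNrf2 wall it fell by 4.19 (SE 0.31). Gpr124, a co-activator of Wnt7 signalling in vessels, rose by 1.29 and 1.37. Of 24 intracellular components 4 rose and 2 fell in controls and 6 rose and 2 fell in caNrf2 wall, with Prickle2, a polarity protein, up by 1.62 and 1.63. In controls the share of partners that changed lay near the 39.2% of all genes, and in both genotypes that of intracellular components lay below the 39.2% and 41.2% of all genes. The shares of targets in both genotypes and of partners in caNrf2 wall lay above those of all genes. No test was made on these shares. Of the 8 epithelial markers none rose, and 1 fell in controls and 2 in caNrf2 wall.

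In untreated tissue, the receptor Fzd3 was higher and the modulator Dkk3 lower in epithelial cells than in wall in both genotypes. Differences are log2 of epithelial cells over wall. Of the 28 tested members, 11 had all 4 libraries over the filter's level in a group of each tissue: Dkk3, Fzd1 to Fzd8, Wnt5a and Wnt5b. Of these, 1 was higher and 1 lower in controls, and 2 were higher and 3 lower in caNrf2. The other 17 passed the filter through 1 tissue alone, 15 of them through wall and 2 (Fzd9 and Fzd10) through epithelial cells, which built a difference into their entry, so their estimates are given as descriptions without a p. Of these 17, 13 were called in each genotype, with Dkk2 and Wnt6 called in controls only and Rspo1 and Wnt2b in caNrf2 only. Those called in a genotype were called again in the fit with no filter on low counts. That fit used the same libraries, so it is no separate support. Over all 28, in controls 12 were lower and 3 higher, where 38.6% of all 15073 genes differed, 18.9% higher and 19.7% lower. In caNrf2 14 were lower and 4 higher, where 43.5% of all genes differed, 20% higher and 23.5% lower. This comparison and the DSS comparison share the untreated wall libraries. Because of those 17, nothing is read from the counts over all 28. All 10 fibroblast markers were lower in epithelial cells (medians -3.23 and -3.56), with sums of 7.85 to 213.3 CPM against 1018 to 1284 CPM in wall, and none was at 0 in every library of a group. The part of the remaining fibroblast transcripts in the epithelial values was not tested.

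**Figure D5:**
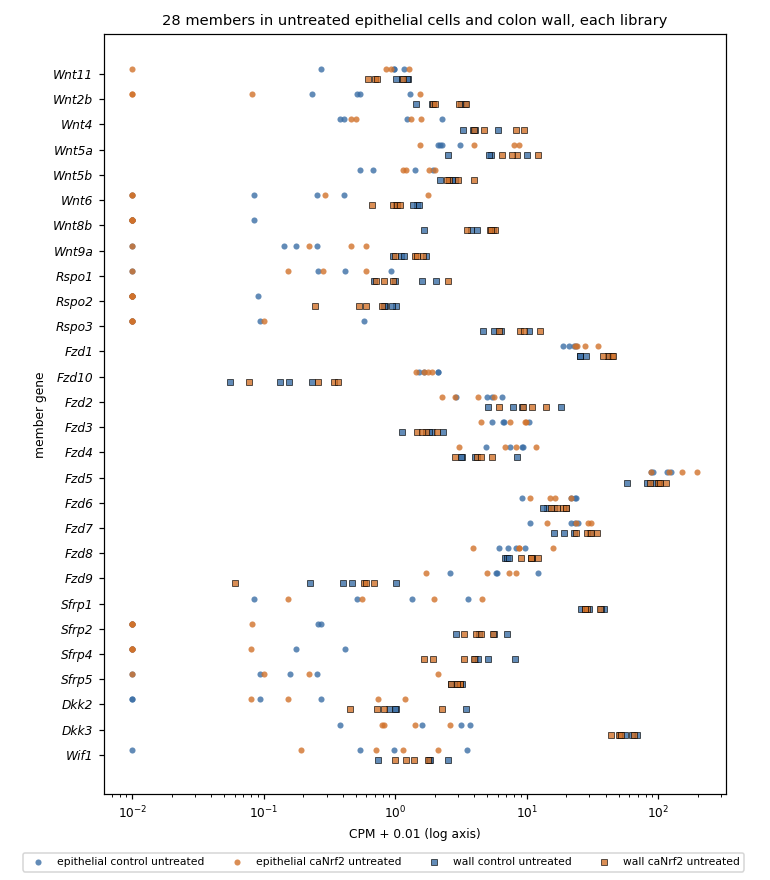
CPM plus 0.01 on a log axis (horizontal) for the 28 members tested between tissues, in each untreated library, circles for epithelial cells and squares for wall, blue for control and orange for caNrf2. Fzd3, Fzd9 and Fzd10 lie higher in epithelial cells, and Dkk3, the Sfrp genes, Rspo3 and Wnt8b lie higher in wall.

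Fzd3 was at 6.73, 10.3, 5.41 and 6.59 CPM in control epithelial cells and, as given above, at 1.12 to 2.31 CPM in untreated control wall. The caNrf2 epithelial libraries held 4.46, 7.43, 9.87 and 9.66 CPM. The tissues did not overlap, and Fzd3 was higher in epithelial cells by 2.22 ± 0.32 (adjusted p = 6.57e-05) in controls and 2.35 ± 0.33 (adjusted p = 3.67e-05) in caNrf2. Fzd9 was at 12.2, 5.97, 2.59 and 5.8 CPM in control epithelial cells and 0.457, 0.998, 0.391 and 0.213 CPM in control wall. Its caNrf2 values were 1.7, 4.98, 8.25 and 7.3 CPM in epithelial cells and 0.568, 0.674, 0.586 and 0.0505 CPM in wall. The tissues did not overlap, with estimates of 3.95 ± 0.73 and 3.73 ± 0.72. Epithelial control replicate 3 and caNrf2 replicate 1, which had the highest epithelial marker sums, held the lowest Fzd3 and Fzd9 of their groups. The same libraries held the highest Fzd5. Which cell type carries these receptors was not tested. Fzd10 was at 1.5, 2.1, 1.63 and 2.11 CPM in control epithelial cells and 0.146, 0.0454, 0.122 and 0.222 CPM in wall, and the caNrf2 ranges were 1.42 to 1.90 and 0.0673 to 0.358 CPM. Its estimates were 3.80 ± 0.51 and 2.94 ± 0.50.

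Fzd5 was at 88.7, 91.9, 124.3 and 117.5 CPM in control epithelial cells and 93.6, 57.5, 101.1 and 82.8 CPM in control wall. Its caNrf2 values were 198.3, 151, 88.3 and 119.9 CPM in epithelial cells and 99.4, 103.3, 115.5 and 86.1 CPM in wall. The tissues overlapped, and Fzd5 was higher in caNrf2 by 0.62 ± 0.22 (adjusted p = 0.0323), beside 0.52 ± 0.22 in controls (adjusted p = 0.0722). The caNrf2 call for Fzd5 was lost without epithelial replicate 1 or 2 (adjusted p = 0.182 and 0.0744), without wall replicate 1, 2 or 4 (adjusted p = 0.0693, 0.0862 and 0.115), under RLE scaling (adjusted p = 0.0579) and with no filter on low counts (adjusted p = 0.0611). It was also lost without the wall libraries of the other name prefix (adjusted p = 0.125) and without the 2 epithelial libraries that stand apart (adjusted p = 0.147). The replicate block (adjusted p = 0.0509) and the fit of the 2 caNrf2 groups alone (adjusted p = 0.0522) lost it too. In epithelial cells, Fzd1 was at 21.1, 23.8, 18.7 and 22.9 CPM in controls and 24.1, 23.2, 35.1 and 27.9 CPM in caNrf2. Fzd2 was at 4.99, 5.41, 2.89 and 6.46 CPM in control and 2.26, 5.62, 2.82 and 4.24 CPM in caNrf2 epithelial cells. In caNrf2 neither overlapped the wall. Fzd1 and Fzd2 were lower in caNrf2 epithelial cells, at -0.46 ± 0.18 (adjusted p = 0.0488) and -1.31 ± 0.42 (adjusted p = 0.0191). The Fzd1 call was lost without epithelial replicate 1, 2 or 4 (adjusted p = 0.0696, 0.13 and 0.0797) or wall replicate 1, 2 or 3 (adjusted p = 0.0936, 0.0526 and 0.114), and that of Fzd2 without wall replicate 4 (adjusted p = 0.051). With the replicate block (adjusted p = 0.0586) and without the 2 epithelial libraries that stand apart (adjusted p = 0.0597) the Fzd1 call was lost as well. Fzd6, Fzd7 and Fzd8 gave estimates between -0.11 and 0.47 with no call in either genotype. Without epithelial control replicate 3, Fzd6 was higher in control epithelial cells by 0.64 (adjusted p = 0.0199). Fzd4 was higher by 1.2 (adjusted p = 0.0147) in caNrf2 without epithelial replicate 1, beside 0.98 ± 0.41 with it (adjusted p = 0.0614). In controls Fzd4 gave 0.90 ± 0.41 (adjusted p = 0.0908), and 1.33 without wall replicate 2 (adjusted p = 0.0168).

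Dkk3 was at 1.58, 3.71, 0.37 and 3.16 CPM in control and 0.778, 0.815, 1.41 and 2.59 CPM in caNrf2 epithelial cells. These values lay below every wall library, and Dkk3 was lower, at -4.62 ± 0.44 (adjusted p = 1.02e-06) and -5.14 ± 0.46 (adjusted p = 5.45e-07). Sfrp1 was at 0.499, 3.55, 0.074 and 1.32 CPM in control and 0.142, 0.544, 1.97 and 4.59 CPM in caNrf2 epithelial cells, with estimates of -4.42 ± 0.75 and -3.98 ± 0.73. In epithelial cells, Sfrp2 was at 0.249, 0, 0 and 0.264 CPM in controls and 0.0708, 0, 0 and 0 CPM in caNrf2. Rspo3 was at 0.0831, 0.565, 0 and 0 CPM in control and 0, 0.0906, 0 and 0 CPM in caNrf2 epithelial cells. Both lay below every untreated wall library, in which Sfrp2 was at 2.89 CPM or more and Rspo3 at 4.6 CPM or more. Several members were almost uncounted in epithelial cells, so pooled counts over 4 libraries are given with exact 95% intervals that cover counting error only. In caNrf2 cells Rspo3 had 1 count against 1998 in wall, a ratio of wall to epithelial level of 374.4 (67.1 to 14796), and Sfrp2 had 1 against 1037, a ratio of 194.3 (34.8 to 7683). Wnt8b had 1 count in control cells against 1194 in wall, a ratio of 200.5 (35.9 to 7927), and none in caNrf2 cells, where wall was at least 82.6-fold higher (floor of 3 counts over the group). Rspo2 had 1 count in control cells, a ratio of 39.5 (7.01 to 1565), and none in caNrf2 cells, where wall was at least 8.68-fold higher. In control cells the estimates were -5.09 ± 0.70 for Rspo3 and -5.24 ± 0.70 for Sfrp2. Sfrp4 gave -4.94 ± 0.71 in control cells, and in caNrf2 had 1 count against 725 in wall, a ratio of 135.9 (24.3 to 5373). Dkk2 had 3 counts in control cells against 537 in wall, a ratio of 30.1 (10.2 to 146.2), and in caNrf2 its estimate was -0.97 ± 0.84.

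Wnt ligands varied in how far they differed between the tissues. Wnt4 was at 2.24, 1.21, 0.37 and 0.395 CPM in control epithelial cells and 0.495, 0.453, 1.55 and 1.3 CPM in caNrf2 cells, below every wall library, with estimates of -1.83 ± 0.55 and -2.65 ± 0.56. In epithelial cells, Wnt9a was at 0.166, 0.242, 0 and 0.132 CPM in controls and 0.212, 0.453, 0 and 0.589 CPM in caNrf2. Every wall library lay higher, and the estimates for Wnt9a were -3.00 ± 0.74 and -2.06 ± 0.66. Wnt5a was at 2.24, 2.18, 3.11 and 2.11 CPM in control and 8.77, 3.99, 7.97 and 1.53 CPM in caNrf2 epithelial cells, which overlapped the wall, with -1.08 ± 0.48 (adjusted p = 0.0888) and -0.47 ± 0.46 (adjusted p = 0.433). The control difference of Wnt5a passed in DESeq2 (-1.17, adjusted p = 0.0401) and without wall replicate 2 (-1.32, adjusted p = 0.0394). Wnt2b was at 0.499, 1.29, 0.222 and 0.527 CPM in control and 0.0708, 0, 0 and 1.53 CPM in caNrf2 epithelial cells. Both groups lay below the wall, with -1.77 ± 0.84 in controls and -2.76 ± 0.92 in caNrf2. Wnt5b lay lower in every epithelial than in any wall library of its genotype, by -0.97 ± 0.39 (adjusted p = 0.058) and -0.81 ± 0.38 (adjusted p = 0.0973), and DESeq2 called both (adjusted p = 0.00918 and 0.0233). In epithelial cells, Wnt6 was at 0, 0.242, 0.074 and 0.395 CPM in controls and 0.283, 0, 0 and 1.77 CPM in caNrf2. Its control estimate was -2.85 ± 1.01. Rspo1 gave -2.27 ± 0.88 in caNrf2. Sfrp5 gave -4.30 ± 0.92 in controls and -2.03 ± 0.74 in caNrf2, where epithelial replicate 3, at 2.12 CPM, was its highest epithelial library. Over 15 alternative runs, the control call for Wnt6 was lost in 8. The caNrf2 calls were lost in 10 runs for Sfrp5, 8 for Rspo1, 4 for Wnt2b and 1 for Wnt9a.

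Of 20 secretion and receptor partners 4 were higher and 8 lower in control epithelial cells than in wall, and 5 higher and 8 lower in caNrf2. Of 23 intracellular components 3 were higher and 3 lower in controls, and 5 higher and 3 lower in caNrf2, a smaller share than the 38.6% and 43.5% of all genes that differed. Of 13 targets 5 were higher and 2 lower in controls, and 7 higher and 2 lower in caNrf2. Cd44, an adhesion receptor and target, was higher in epithelial cells by 1.91 and 2.34, and Nkd1, a feedback inhibitor, was lower, at -2.41 and -2.21.

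No member passed the threshold between caNrf2 and control in epithelial cells, untreated wall or DSS-treated wall. In epithelial cells none of 17 tested members and 0% of 12941 genes passed (edgeR), while 1 member and 10.4% of genes had an unadjusted p below 0.05 and DESeq2 called 201 genes and no member. That member, Wnt5a, gave 1.24 ± 0.54 (95% interval 0.18 to 2.29, adjusted p = 0.471), and its groups overlapped. Epithelial Wnt5a was highest in caNrf2 replicates 1 and 3, at 8.77 and 7.97 CPM. In untreated wall none of 29 members passed, where 0.224% of genes did, and 3 members (Sfrp4, Fzd7 and Fzd8) had an unadjusted p below 0.05, beside 10.5% of genes. Sfrp4 lay lower in all caNrf2 libraries (1.63 to 3.93 CPM) than in all controls (4.03 to 8.12 CPM), with -0.97 ± 0.32 (adjusted p = 0.253). Rspo2 was at 0.237 to 0.781 CPM against 0.809 to 0.998 CPM, with -0.68 ± 0.35 (adjusted p = 0.542). These were the 2 members whose groups did not overlap, beside 6.79% of all genes. Fzd7, a receptor of intestinal stem cells, gave 0.43 ± 0.18 (adjusted p = 0.404). Without control replicate 4 it became 0.64 (adjusted p = 0.0434), and without the wall libraries of the other prefix 0.72 (adjusted p = 0.0365). In DSS-treated wall none of 29 members passed, where 0.0933% of genes did, and none had an unadjusted p below 0.05, beside 2.53% of genes. Rspo1 had the smallest p there, with 0.85 ± 0.49 (adjusted p = 1). For a transgene effect that differed between epithelial cells and wall, none of 28 members and 0% of genes passed (edgeR), with 2 members (Dkk2 and Rspo3) and 7.98% of genes at an unadjusted p below 0.05 and no member in DESeq2.

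Exons of Rspo3, Sfrp2, Fzd5, Wnt5a, Wnt11 and Wnt7b overlap a gene on the other strand in GENCODE M21 (Gm48159, Gm26771, Gm38058, Gm2670, Gm8398 and AU022754). The strand setting is not given, so reads of such partners cannot be told apart from those of the members.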

How the data were processed

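Messenger RNA of 24 mouse colon libraries was analysed from the authors' deposited files, 1 per library. Per the file headers each holds 30383 RefSeq transcripts with an expected count and a TPM value, both as the authors deposited them; other columns were not used. The series' design text names fewer replicates than the 4 libraries per group analysed. The submitters' processing notes name RSEM 1.2.11, FastQC and mm10 without their role, and neither an aligner nor a strand setting is stated. These deposited expected counts (39.2% not whole) were summed per gene symbol and rounded. CPM are counts over TMM-scaled library sizes. TPM was used between genes only and was not tested.

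edgeR 4.0.16 (limma 3.58.1, R 4.3.3) fitted quasi-likelihood models after TMM scaling and a low-count filter by group (filterByExpr), with p adjusted by Benjamini-Hochberg and a threshold of 0.05. Epithelial libraries were fitted alone, the 16 wall libraries together, and the tissues over the 16 untreated libraries, giving 9 comparisons. SE is the absolute log2 fold change over the square root of F, and 95% intervals are 1.96 SE. Alternatives were RLE scaling, DESeq2 1.42.0, no filter, the replicate block, each library left out, the 4 wall libraries of the other prefix or the 2 odd epithelial libraries left out, and fits of 2 groups. The steps were tested on simulated counts. No 2 libraries of a group agreed within sampling noise (lowest chi-square per gene 10.5 over 36 pairs). The members and lists were chosen with earlier results of these data known. Fold changes, or pooled ratios where 1 group had 3 counts or fewer, are printed for members past the threshold, with library values where a mean reached 1 CPM. Of each pathway list only genes among the 3 smallest p are named. Muc2 is not used here.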

Additional observations from a re-analysis of the deposited data

Results flagged for a closer look

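Of 133 sets of 4 libraries with a mean of at least 1 CPM, 7 held a library far from the other 3 by Dixon's test, which flags about 1 set in 20 by chance. In untreated control wall, replicate 4 was the high library for 3 genes: Dkk2 at 3.43 CPM (others 0.878 to 0.998), Fzd1 at 41.8 CPM (others 25.3 to 28.1) and Fzd8 at 11 CPM (others 6.84 to 7.31). This library has the other name prefix. Replicate 1 of untreated caNrf2 wall was high for Rspo1 at 2.51 CPM (others 0.708 to 0.959) and Sfrp1 at 36.0 CPM (others 27.8 to 28.6). Replicate 3 of control epithelial cells, which stands apart in its marker sums, was low for Fzd6 at 9.11 CPM (others 21.8 to 23.7) and high for Wnt5a at 3.11 CPM (others 2.11 to 2.24).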

How the results depend on the processing

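No member called in the main tests changed sign under any alternative run. The member counts were 19 for DSS in controls (17 to 20 leaving out a library, 17 to 19 otherwise), 19 for DSS in caNrf2 wall (16 to 21, and 19 to 21), 15 for the tissues in controls (14 to 17, and 14 to 18) and 18 in caNrf2 (13 to 17, and 12 to 19). Called under every alternative were 16 of 19, 15 of 19, 14 of 15 and 11 of 18 of these members. The count for the transgene in untreated wall went from 0 to 1 (Fzd7) without control replicate 4, for a range of 0 to 1 over the leave-outs, and to 1 without the 4 libraries of the other prefix. The other transgene counts and both interaction counts stayed at 0. Without those 4 libraries the DSS counts were 19 in controls (18 shared with the main test) and 20 in caNrf2 wall (17 shared). Without the 2 epithelial libraries that stand apart, the tissue counts were 17 and 16. With the replicate block the counts were 0, 0, 0, 19, 19, 0, 15, 16 and 0 in the order of the 9 comparisons. Same-numbered libraries correlated between -0.558 and 0.287 in their deviations, so the numbers were not taken to pair them. RLE scaling moved the median of all genes by at most -0.097 on the log2 scale. With 1 library of the other prefix in each wall group, no separate test was made within them. Epithelial totals are the lowest, and the filter's level was 0.871 CPM there against 0.244 CPM in wall.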
